A study of Arabidopsis thaliana with 21 samples.

Results

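The genes described here were the 55 loci of the *Arabidopsis thaliana* WRKY transcription factor family that a fixed list of loci named, out of 27444 protein-coding genes. For each locus, the called peaks of histone variant H2A.Z or of acetylated histone H4 (H4Ac) were looked up in a window that joined the gene body to the 500 bp before its transcription start site (TSS). A gene was called marked in a library when a peak covered at least 1 bp of that window. The list was checked against the genome: codons for the WRKY heptapeptide, the stretch that gives the family its name, were found in the coding exons of all 55 genes. They occurred in 2 copies in 9 genes, which were the 9 listed members of group I, and with a lysine codon at the sixth place in WRKY50 and WRKY51.

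WRKY proteins are plant DNA-binding factors that recognise the W box, a short promoter element with a TTGAC core. The family is divided by its DNA-binding domains and zinc fingers into group I, groups IIa to IIe and group III. Many members act in immunity downstream of mitogen-activated protein (MAP) kinase cascades, and others act in senescence, nutrient supply, heat and drought responses, or the patterning of trichomes and seed coats. H2A.Z is placed into nucleosomes by the SWR1 remodelling complex. In plants it lies just downstream of the TSS of many genes and over the bodies of inducible genes, among them genes of defence and stress responses. Acetylation of the H4 tail accompanies open chromatin at the 5′ ends of transcribed genes.

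The mutant plants were *mbd9-1* seedlings, which carry a mutation in *MBD9*, a gene for a methyl-CpG-binding domain protein, and they were set against wild type (WT). Both were of the Col-0 ecotype and were collected as 6-day-old seedlings without roots, and the mutant is a single line. Peak lists of 9 libraries were used: H2A.Z in *mbd9-1*, H2A.Z in WT and H4Ac in WT, with 3 biological replicates each, the H2A.Z and H4Ac libraries of a WT replicate coming from the same chromatin. The *arp6-1* libraries, the *mbd9-1* H4Ac libraries and the inputs were not analysed here.

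The lists held 5215 to 5733 peaks in the *mbd9-1* H2A.Z libraries, 6263 to 9260 in the WT H2A.Z libraries and 10439 to 12030 in the WT H4Ac libraries. They give positions without scores or reads, so a value below is the number of window base pairs under peaks, and the lists themselves do not give the depth behind it. In each list many peaks shared a single width, which was the narrowest of the list (in *mbd9-1* replicate 1, of all peaks but 1). These made up 64.4% of the peaks of *mbd9-1* replicate 3, whose common width was 381 bp, 47.8% in *mbd9-1* replicate 1 (495 bp) and 35.2% in *mbd9-1* replicate 2 (471 bp), against 29.7% to 41.3% in the WT H2A.Z lists (428 to 461 bp). The lists hold no readout of *MBD9* itself, so the genotype labels could not be checked.

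Stretches of 6 members are printed because each shows the DNA behind a pattern described further on: H2A.Z alone, H4Ac alone, both marks on the same bases, and H2A.Z called in *mbd9-1* alone. They were read 5′ to 3′ along each gene's strand from the RefSeq TAIR10.1 assembly, within the stretch shared by the named libraries, and untranslated regions were left out. Capitals mark the start codon in WRKY33 and WRKY6 and the heptapeptide codons in WRKY44 and WRKY46, while WRKY17 and WRKY36 have none. The WRKY33 stretch (chr2:16108476-16108775, plus strand) is the start of the coding sequence and part of the first intron, and lay under the H4Ac peaks of all 3 WT libraries. The WRKY44 stretch (chr2:15645796-15646095, plus strand) lay under the H2A.Z peaks of 5 libraries. The WRKY46 stretch (chr2:19044173-19044472, minus strand) lay under the H2A.Z and the H4Ac peaks of all WT libraries. The WRKY6 stretch (chr1:23018910-23019155, minus strand) lay under all 3 WT H2A.Z peaks. The WRKY17 stretch (chr2:10438838-10439137, minus strand) and the WRKY36 stretch (chr1:26277323-26277530, minus strand) lay under the peaks of all 3 *mbd9-1* libraries and of no WT library.
WRKY33: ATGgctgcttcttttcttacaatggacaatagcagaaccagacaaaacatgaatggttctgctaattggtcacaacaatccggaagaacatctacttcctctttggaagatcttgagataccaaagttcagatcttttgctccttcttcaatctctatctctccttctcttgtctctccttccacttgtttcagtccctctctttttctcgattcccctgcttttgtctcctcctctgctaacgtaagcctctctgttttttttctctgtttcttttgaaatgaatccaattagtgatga
WRKY44: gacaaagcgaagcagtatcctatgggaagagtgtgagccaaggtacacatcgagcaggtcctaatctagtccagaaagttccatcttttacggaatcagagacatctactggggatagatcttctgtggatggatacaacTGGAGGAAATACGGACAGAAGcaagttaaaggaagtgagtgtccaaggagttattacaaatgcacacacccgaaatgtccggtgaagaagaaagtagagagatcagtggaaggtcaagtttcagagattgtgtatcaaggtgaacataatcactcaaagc
WRKY46: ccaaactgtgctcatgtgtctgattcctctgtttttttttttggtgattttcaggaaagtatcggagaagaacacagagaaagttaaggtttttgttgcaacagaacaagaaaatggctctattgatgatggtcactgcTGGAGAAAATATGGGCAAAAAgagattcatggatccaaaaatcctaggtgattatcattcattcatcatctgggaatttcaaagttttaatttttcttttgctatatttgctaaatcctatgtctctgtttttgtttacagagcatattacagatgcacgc
WRKY6: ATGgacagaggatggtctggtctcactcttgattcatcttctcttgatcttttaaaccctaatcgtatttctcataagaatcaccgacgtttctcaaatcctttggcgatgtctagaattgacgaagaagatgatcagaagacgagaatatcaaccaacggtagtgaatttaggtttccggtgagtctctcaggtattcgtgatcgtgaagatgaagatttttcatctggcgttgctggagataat
WRKY17: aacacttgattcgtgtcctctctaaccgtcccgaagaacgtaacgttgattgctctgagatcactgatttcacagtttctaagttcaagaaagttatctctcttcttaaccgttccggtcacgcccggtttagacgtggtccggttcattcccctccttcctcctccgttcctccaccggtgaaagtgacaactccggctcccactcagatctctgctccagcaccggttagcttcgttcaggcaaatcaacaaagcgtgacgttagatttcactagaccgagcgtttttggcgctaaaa
WRKY36: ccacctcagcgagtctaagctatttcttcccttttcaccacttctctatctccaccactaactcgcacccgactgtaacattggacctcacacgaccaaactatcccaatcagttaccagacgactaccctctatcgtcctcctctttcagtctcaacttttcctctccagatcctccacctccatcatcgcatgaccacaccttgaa

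The share of WRKY genes with H2A.Z lay near that of protein-coding genes at large, and the share with H4Ac lay below it. In *mbd9-1*, 13, 16 and 8 of the 55 WRKY genes had an H2A.Z peak in replicates 1 to 3, or 23.6%, 29.1% and 14.5%, against 18.5%, 21.4% and 14.1% of all protein-coding genes. In WT, 22, 12 and 19 WRKY genes had an H2A.Z peak, or 40.0%, 21.8% and 34.5%, against 34.6%, 23.4% and 29.4% of all genes. For H4Ac in WT the counts were 20, 18 and 20 WRKY genes, or 36.4%, 32.7% and 36.4%, against 49.3%, 43.9% and 43.5% of all genes. The WRKY share was thus below that of all genes in each of the 3 H4Ac libraries. The mean difference between WRKY genes and all genes was 4.40 ± 3.68 percentage points for *mbd9-1* H2A.Z, 2.99 ± 3.94 for WT H2A.Z and -10.4 ± 2.99 for WT H4Ac (SD, n = 3 libraries each). Without the narrowest peaks the *mbd9-1* value was -1.23. The per-library plot of these shares shows the WRKY points below the points of all genes for H4Ac and mixed with them for H2A.Z.

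**Figure D1:**
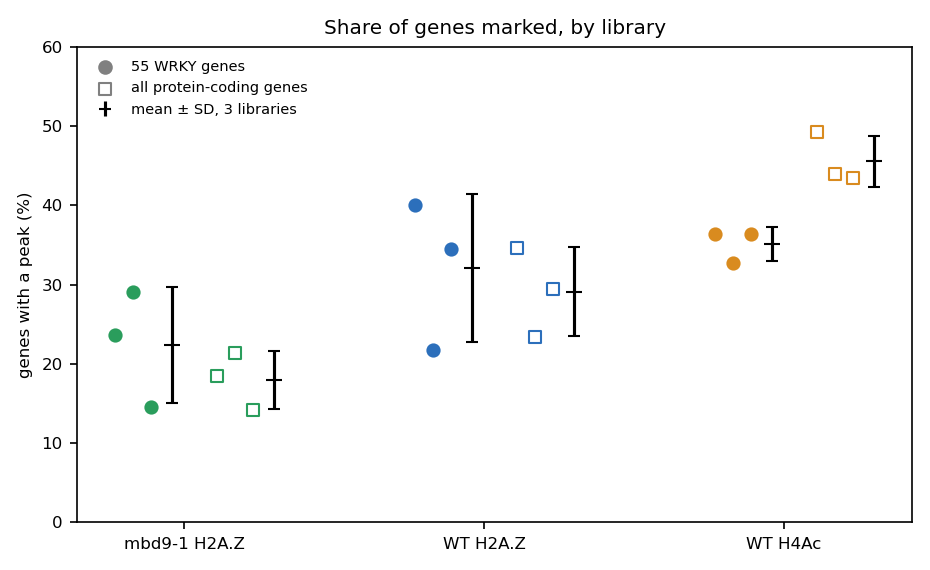
Percentage of genes with a called peak in each library (y axis) for *mbd9-1* H2A.Z, WT H2A.Z and WT H4Ac (x axis), as filled circles for the 55 WRKY genes and open squares for all protein-coding genes, with the mean and SD of 3 libraries beside them. The WRKY circles lie at 32.7% to 36.4% for H4Ac, below every square of that group, and at 21.8% to 40.0% for WT H2A.Z, spread around the squares.

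The first comparison asked whether loss of MBD9 function changed how many WRKY genes carried H2A.Z. On average 22.4% ± 7.35 of WRKY genes were marked in *mbd9-1* and 32.1% ± 9.33 in WT (SD, n = 3 each), a difference of -9.70 percentage points, while all genes gave 18.0% ± 3.67 in *mbd9-1* and 29.1% ± 5.61 in WT, a difference of -11.1 points. Single libraries moved the WRKY difference: it was -14.8 points without WT replicate 2, and -5.76 points without *mbd9-1* replicate 3 and likewise without WT replicate 1. The WRKY ranges overlapped, since 16 genes were marked in *mbd9-1* replicate 2 and 12 in WT replicate 2. The WT lists were also longer. When every H2A.Z list was cut to its 5215 widest peaks, the WRKY share was 21.8% in *mbd9-1* and 21.8% in WT, a difference of 0 points, against 17.1% in *mbd9-1* and 20.4% in WT for all genes. This cut was not alike between genotypes. WT replicates 1 and 3 held 6511 and 5312 peaks above the narrowest width and so lost all narrow ones. The *mbd9-1* lists held 2722, 3715 and 2004 such peaks and kept many narrow ones. Peaks of equal width were kept in order of position. Whether list length made the difference was not tested.

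Seen gene by gene, 11 WRKY genes had an H2A.Z peak in at least 2 of the 3 *mbd9-1* libraries (20.0%, against 16.0% of all genes) and 19 in at least 2 of the 3 WT libraries (34.5%, against 28.8%). Of those 19, 8 were also marked in at least 2 *mbd9-1* libraries (42.1%, against 38.1% for all genes) and 13 in at least 1 (68.4%, against 61.6%). These 8 were WRKY44, WRKY9, WRKY72, WRKY13, WRKY23, WRKY45, WRKY35 and WRKY62. The *mbd9-1* count depended on narrow peaks: it was 3 without the narrowest (5.45%, against 8.89% of all genes). Requiring both remaining libraries when 1 was left out is a stricter rule that cannot raise the count. It gave 5 genes without replicate 1 (9.09%, against 8.52%), 4 without replicate 2 (7.27%, against 7.35%) and 10 without replicate 3 (18.2%, against 12.3%). In the same way the WT count was 10 genes without WT replicate 1 (18.2%, against 17.6%), 16 without WT replicate 2 (29.1%, against 23.2%) and 9 without WT replicate 3 (16.4%, against 19.5%). With a single library enough, 22 WRKY genes were marked in *mbd9-1* (40.0%, against 32.0% of all genes) and 26 in WT (47.3%, against 42.8%). With all 3 required, 4 were marked in *mbd9-1* (7.27%, against 6.12%) and 8 in WT (14.5%, against 15.8%).

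No WRKY gene had an H2A.Z peak in all 6 H2A.Z libraries, against 3.48% of all genes. Nearest to it came WRKY44, WRKY45, WRKY62, WRKY13, WRKY72 and WRKY35, each with peaks in 5 of the 6. The share of all genes with peaks in 5 of the 6 was not computed. Without the narrowest peaks, WRKY44 and WRKY62 kept all their peaks. WRKY45 then kept 1167, 887 and 0 bp in *mbd9-1*, against 1003, 0 and 0 bp in WT. WRKY13, WRKY72 and WRKY35 kept *mbd9-1* peaks in replicate 2 alone. WRKY44 (AT2G37260, *TTG2*) acts in trichome and seed coat development. It had 0, 1113 and 948 bp of H2A.Z in *mbd9-1*, against 1063, 714 and 943 bp in WT. WRKY45 (AT3G01970), which acts in phosphate uptake, had 1167, 887 and 381 bp in *mbd9-1*, against 1003, 0 and 428 bp in WT. WRKY62 (AT5G01900), a group III gene of salicylic acid dependent defence, had 1039, 927 and 578 bp in *mbd9-1*, against 1393, 0 and 752 bp in WT. All 3 genes had overlapping values in the genotypes, and each lacked a peak in only 1 library. None of them had an H4Ac peak.

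Genes with less H2A.Z in every *mbd9-1* library than in every WT library numbered 4 among the WRKY genes (7.27%, against 8.83% of all genes). They were WRKY6, WRKY53, WRKY13 and WRKY35. WRKY6 (AT1G62300), which acts in senescence and defence and represses the phosphate exporter gene PHO1, had 0, 0 and 0 bp in *mbd9-1*, against 678, 584 and 428 bp in WT. WRKY53 (AT4G23810), which promotes leaf senescence, had 0, 0 and 0 bp in *mbd9-1*, against 1316, 461 and 428 bp in WT. These were the only 2 WRKY genes with a peak in all 3 WT and no *mbd9-1* library (3.64%, against 4.88% of all genes). In both, part of the WT evidence came from peaks of the narrowest width: without those WRKY6 kept 678, 584 and 0 bp in WT and WRKY53 kept 1316, 0 and 0 bp. Neither gene then had a peak in all 3 WT libraries, and *mbd9-1* stayed at 0 in both.

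WRKY13 (AT4G39410), which acts in stem development and flowering, had 495, 718 and 0 bp in *mbd9-1*, against 887, 853 and 1316 bp in WT. The common peak lay near the 5′ end, its centre 299 to 438 bp from the TSS in *mbd9-1* and 306 to 311 bp in WT, and WT replicate 3 had a further narrow peak towards the 3′ end. WRKY35 (AT2G34830), of group IIe, had the most H2A.Z of any member in WT. Its values were 495, 599 and 0 bp in *mbd9-1*, against 1596, 1712 and 1446 bp in WT. Each WT library held a peak at both ends of the WRKY35 gene, whereas *mbd9-1* replicate 1 held only the 5′ peak, replicate 2 only the 3′ peak and replicate 3 neither. The mean difference, *mbd9-1* minus WT, was -1220 bp for WRKY35, -735 bp for WRKY53, -614 bp for WRKY13 and -563 bp for WRKY6.

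Leaving out a library moved this count. Without WT replicate 2, which had the shortest of the WT lists, 10 WRKY genes were lower in every *mbd9-1* library (18.2%, against 15.1% of all genes), and 5 had peaks in all WT and no *mbd9-1* libraries (9.09%, against 8.37%). Without the narrowest peaks the counts were 2 (3.64%, against 6.54%) and 0 (against 4.29%), and with lists of equal length they were 2 (3.64%, against 6.35%) and 0 (against 3.02%). Under the looser rule of a peak in at least 2 WT and no *mbd9-1* library, WRKY26, WRKY60, WRKY48 and WRKY50 joined WRKY6 and WRKY53, which made 6 WRKY genes (10.9%, against 11.1% of all genes).

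Two-sided exact permutation tests of the base pairs under peaks were run on the 14153 genes with any H2A.Z peak, 32 of them WRKY genes. With 3 libraries against 3 the smallest possible p is 0.1. It was reached by 2724 genes (19.2%), 6 of them WRKY genes, and the smallest Benjamini-Hochberg adjusted p over all genes tested was 0.520. No WRKY gene could therefore pass a threshold of 0.05, and the separations above are descriptions.

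**Figure D2:**
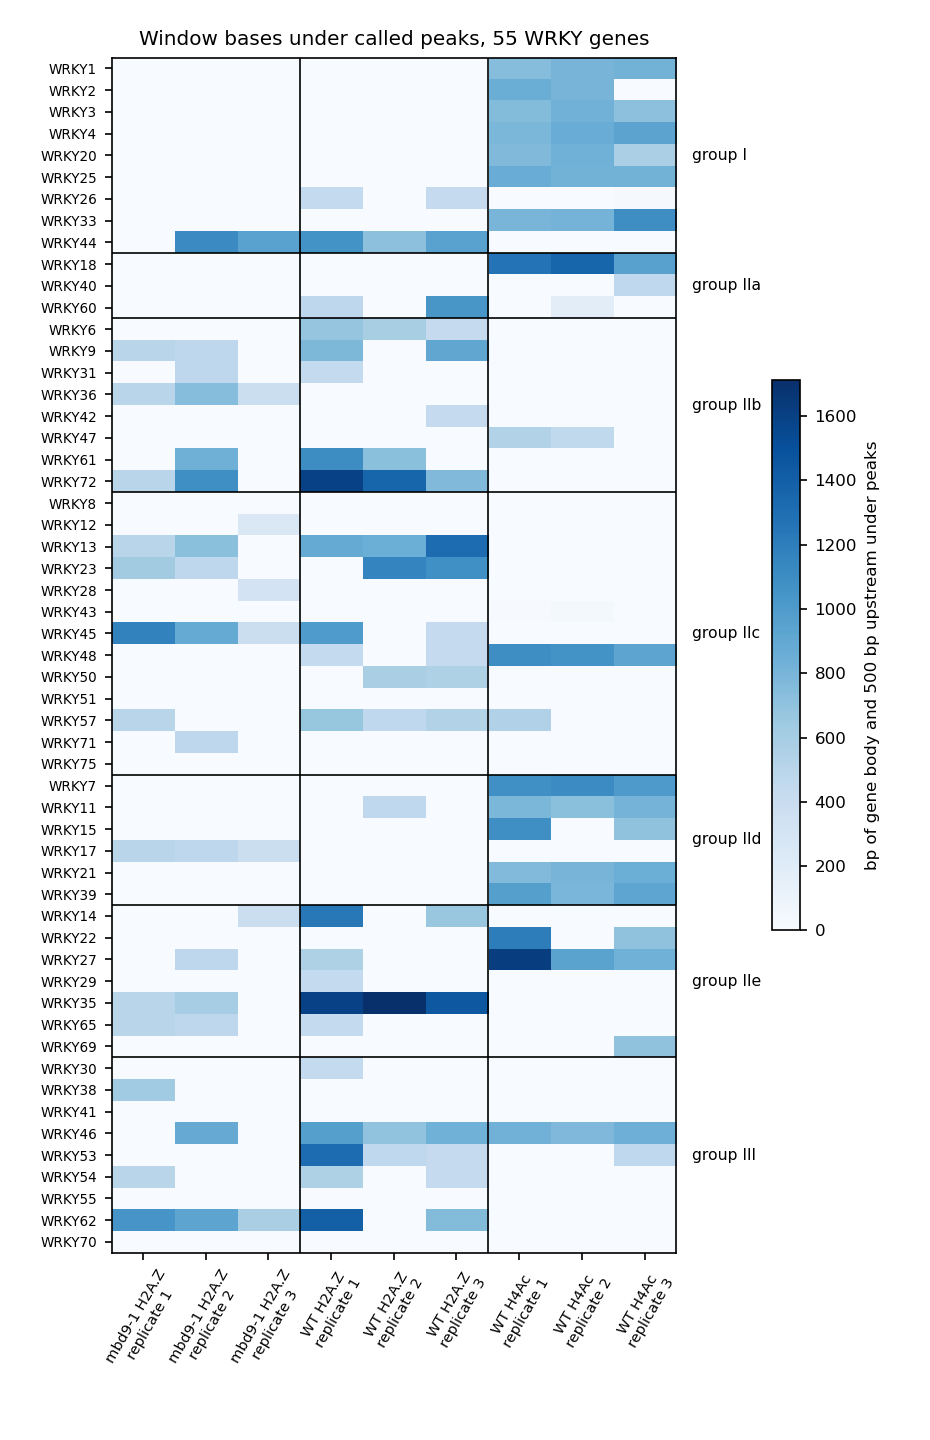
Heat map of the window base pairs under called peaks (colour scale, bp) for the 55 WRKY genes (rows, by family group) in 9 libraries (columns: *mbd9-1* H2A.Z, WT H2A.Z, WT H4Ac). H4Ac fills rows of groups I and IId that are nearly empty for H2A.Z, and WRKY35 has the darkest WT H2A.Z cells (1446 to 1712 bp).

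In the other direction, WRKY17 and WRKY36 had an H2A.Z peak in all 3 *mbd9-1* libraries and in no WT library (3.64%, against 0.557% of all genes). They were also the 2 marked in at least 2 *mbd9-1* and no WT libraries (3.64%, against 2.53%), and they were also the 2 WRKY genes with more base pairs in every *mbd9-1* than in every WT library (3.64%, against 1.10%). Without *mbd9-1* replicate 3, the WRKY genes with more base pairs numbered 3 and the shares lay closer (5.45%, against 4.66% of all genes). WRKY17 (AT2G24570), which with WRKY11 restrains basal resistance to bacteria, had 495, 471 and 381 bp in *mbd9-1*, against 0, 0 and 0 bp in WT. WRKY36 (AT1G69810), which represses the light signalling gene HY5, had 495, 738 and 381 bp in *mbd9-1*, against 0, 0 and 0 bp in WT. These widths were the narrowest of their lists in all but WRKY36 of replicate 2. Without such peaks WRKY17 had 0 bp in every library and WRKY36 kept 738 bp in *mbd9-1* replicate 2 alone, so that the count was 0, against 0.514% of all genes. The 3 peaks nonetheless met on the same bases, 321 bp of WRKY17 and 208 bp of WRKY36, from which the printed stretches were taken. In WRKY36 they lay towards the 3′ end, centred 1685 to 1915 bp from the TSS, and a window ending 1000 bp past the TSS did not reach them. Neither gene had an H4Ac peak.

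**Figure D3:**
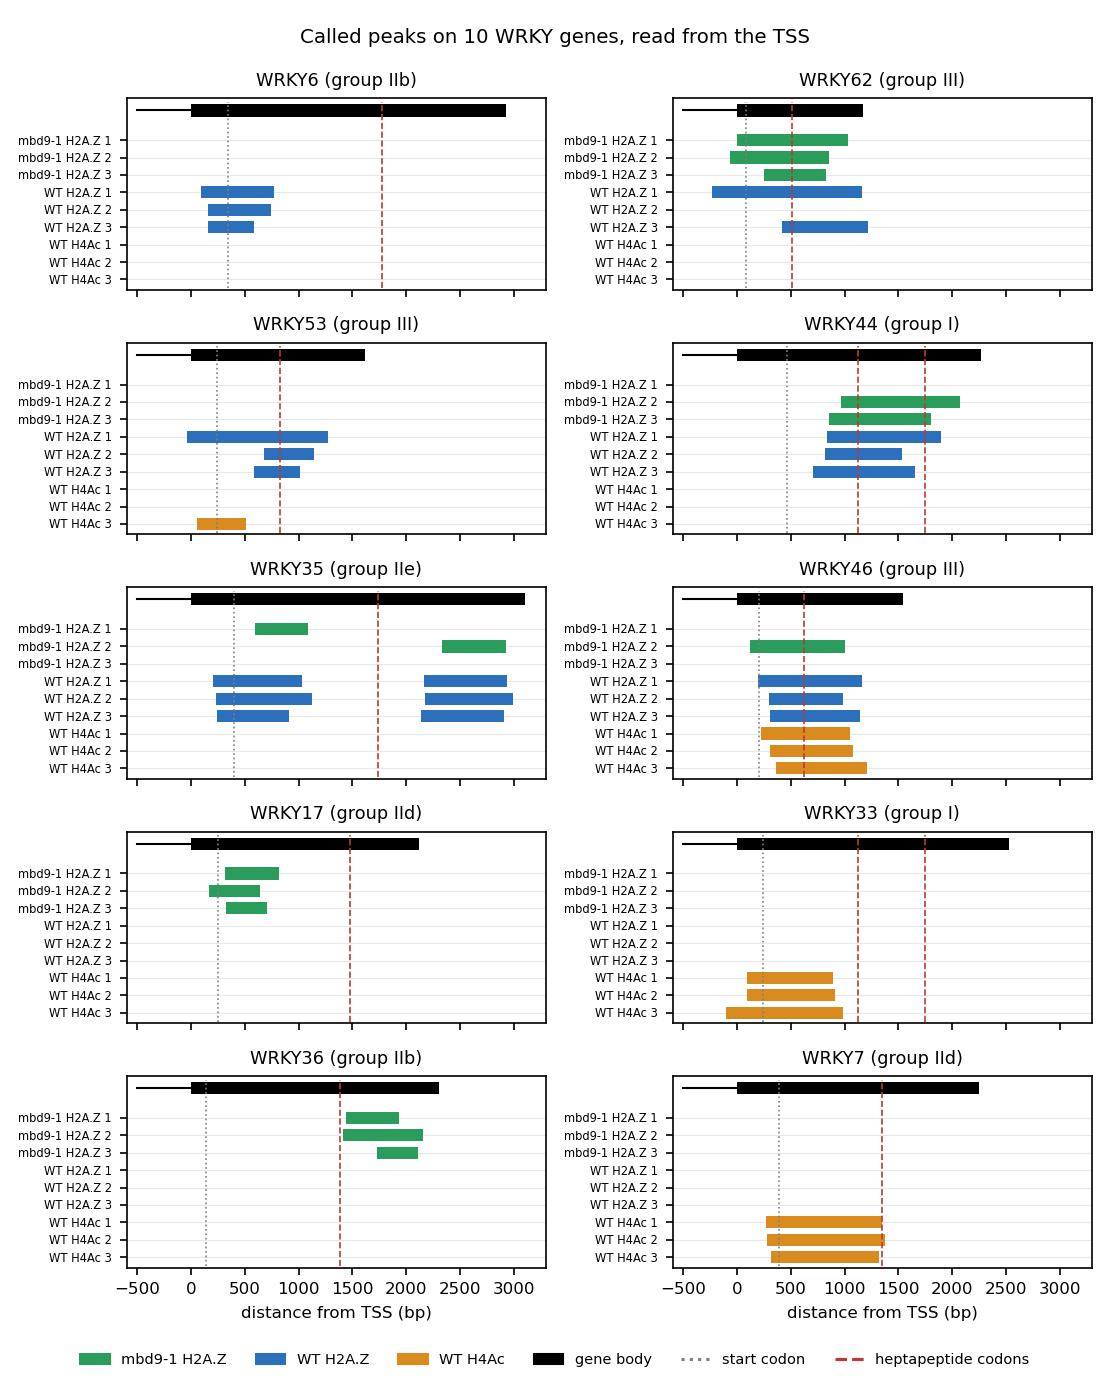
Called peaks on 10 WRKY genes, placed by distance from the TSS in bp (x axis), with 1 line per library (*mbd9-1* H2A.Z green, WT H2A.Z blue, WT H4Ac orange), the gene body in black, the start codon dotted and the heptapeptide codons dashed. WRKY6 and WRKY53 have H2A.Z peaks in WT lines only, WRKY17 and WRKY36 in *mbd9-1* lines only, WRKY46 has both marks over the same stretch, and WRKY33 and WRKY7 have H4Ac alone.

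The second comparison set H2A.Z against H4Ac in WT. Averaged over libraries, 32.1% ± 9.33 of WRKY genes had H2A.Z and 35.2% ± 2.10 had H4Ac (SD, n = 3 each), a difference of -3.03 percentage points. For all genes it was 29.1% ± 5.61 with H2A.Z and 45.6% ± 3.23 with H4Ac, a difference of -16.4 points. Within replicates 1 to 3, each of which used the same chromatin for both antibodies, the WRKY difference was 3.64, -10.9 and -1.82 points, so its sign varied, while that of all genes was -14.7, -20.6 and -14.1 points. Without WT H2A.Z replicate 2 the WRKY difference was 2.12 points, and with lists of equal length within each antibody it was -13.3 points.

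The 2 marks fell largely on different WRKY genes. Each was present in at least 2 of 3 WT libraries on 19 genes (34.5%, against 28.8% of all genes for H2A.Z and 46.3% for H4Ac), yet only WRKY46 and WRKY48 had both (3.64%, against 11.0% of all genes). Another 17 WRKY genes had H2A.Z only (30.9%, against 17.8%), 17 had H4Ac only (30.9%, against 35.3%) and 19 had neither (34.5%, against 35.9%). Of the 19 WRKY genes with H2A.Z, 10.5% also had H4Ac, against 38.2% of all genes with H2A.Z. With an H4Ac peak in a single library enough, the shares lay closer, at 31.6% of the WRKY genes with H2A.Z and 44.9% of all genes with H2A.Z. The overlap depended on the rule: 8 WRKY genes had both marks when 1 library of each was enough (14.5%, against 20.5% of all genes), and 1 when all 3 were required (1.82%, against 4.58%). It was 1 gene (1.82%) without the narrowest peaks, with lists of equal length, without WT H2A.Z replicate 1 and without WT H2A.Z replicate 3, against 6.45%, 6.81%, 6.51% and 7.47% of all genes in that order.

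WRKY46 (AT2G46400), a group III gene of bacterial defence and drought responses, had 969, 691 and 834 bp of H2A.Z and 828, 775 and 843 bp of H4Ac in WT replicates 1 to 3, and 0, 877 and 0 bp of H2A.Z in *mbd9-1*. The bases shared by both marks were 828, 682 and 778 bp within the replicates, or 85.4%, 98.7% and 93.3% of the H2A.Z bases. WRKY48, a repressor of basal defence, had 439, 0 and 428 bp of H2A.Z and 1095, 1063 and 928 bp of H4Ac in WT, and no H2A.Z in *mbd9-1*. Both its H2A.Z peaks were of the narrowest width. The overlap on WRKY46 was thus the only case in which both marks covered a WRKY gene in every WT replicate. WRKY53 carried both in WT replicate 3, but the 428 bp of H2A.Z and the 456 bp of H4Ac shared 0 bp.

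The family groups differed in which mark their listed members held, and the counts below are of listed genes, not of whole groups. Among all protein-coding genes, 17.8% had H2A.Z only, 35.3% had H4Ac only, 11.0% had both and 35.9% had neither. In group I, 2 of 9 genes had H2A.Z only and 7 had H4Ac only. In group IId, whose members carry a calmodulin-binding motif, 0 of 6 had H2A.Z only and 5 had H4Ac only. In group IIb, by contrast, 4 of 8 had H2A.Z only and 1 had H4Ac only, and in group IIc 5 of 13 had H2A.Z only, 1 had H4Ac only and 1 had both. The group IIc gene with H4Ac only was WRKY43, with 10 and 35 bp from peaks centred outside its window. The gene with both was WRKY48, whose H2A.Z peaks were of the narrowest width. Group III had 3 of 9 with H2A.Z only, 1 with both and 0 with H4Ac only. Groups IIa (1 with H2A.Z only and 1 with H4Ac only of 3) and IIe (2 and 2 of 7) were split. Members of a group share sequence and ancestry, so these counts are not over independent genes. They also depended on peaks of the narrowest width. Without those, H2A.Z was no longer in at least 2 WT libraries on WRKY26 (group I), WRKY45 and WRKY48 (IIc), and WRKY53 and WRKY54 (III). The same held for H4Ac on WRKY47 (IIb).

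**Figure D4:**
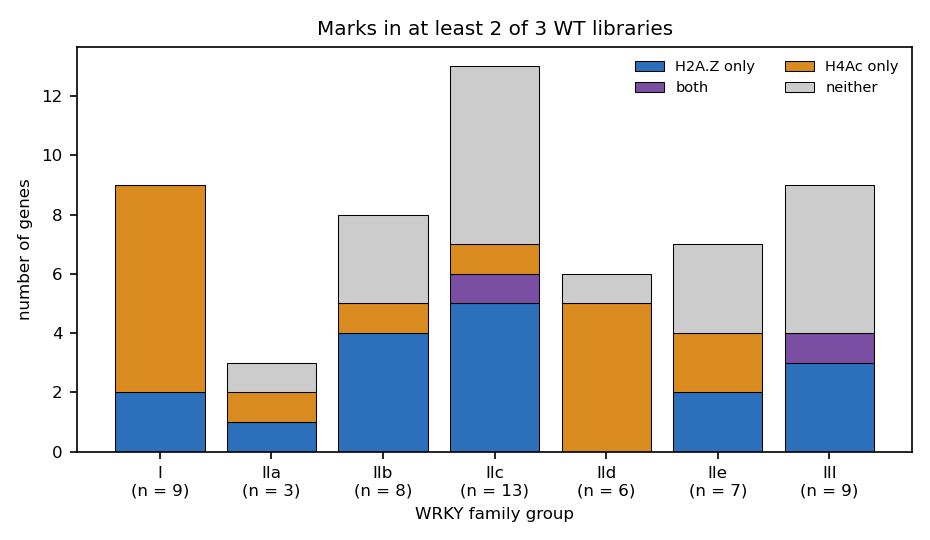
Number of WRKY genes (y axis) in each family group (x axis) with H2A.Z only, both marks, H4Ac only or neither in at least 2 of 3 WT libraries. H4Ac only makes up 7 of 9 listed genes in group I and 5 of 6 in group IId, and no listed gene of group III. Among all protein-coding genes it makes up 35.3%.

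At least 1 WT H4Ac peak was called on 25 WRKY genes (45.5%, against 53.9% of all genes), and all 3 WT libraries had it on 14 (25.5%, against 36.5%). The genes with H4Ac in all 3 and no WT H2A.Z peak were WRKY1, WRKY3, WRKY4, WRKY20, WRKY25, WRKY33, WRKY18, WRKY7, WRKY21 and WRKY39 (18.2%, against 22.4% of all genes). WRKY18 (AT4G31800), a group IIa repressor of basal defence, had 1267, 1358 and 954 bp of H4Ac. WRKY7, of group IId, had 1080, 1105 and 1004 bp. WRKY33 (AT2G38470), the factor that drives camalexin synthesis and resistance to necrotrophic fungi, had 797, 813 and 1095 bp. WRKY39, which acts in heat responses, had 966, 793 and 919 bp, and WRKY4, which acts in resistance to necrotrophs, had 785, 863 and 932 bp. The values of these 5 genes ranged from 785 to 1358 bp over the replicates, and no H2A.Z peak was called on any of them in either genotype.

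The opposite set, with H2A.Z in all 3 WT libraries and no H4Ac, was WRKY44, WRKY6, WRKY72, WRKY13 and WRKY35 (9.09%, against 8.93% of all genes). WRKY72, a gene of basal defence, had 495, 1086 and 0 bp of H2A.Z in *mbd9-1*, against 1593, 1364 and 768 bp in WT, and overlapped between genotypes. WRKY57, which acts in drought tolerance and senescence, had H2A.Z in all WT libraries too. It had 495, 0 and 0 bp in *mbd9-1*, against 671, 461 and 537 bp in WT, and its single H4Ac peak, of 546 bp in replicate 1, lay on bases that also had H2A.Z.

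Members of the same group or function, all but WRKY25 and WRKY26 chosen for their known roles, were also compared. WRKY18, WRKY40 and WRKY60 form group IIa and act together in basal defence. WRKY40 had no H2A.Z and 0, 0 and 456 bp of H4Ac. WRKY60 had no H2A.Z in *mbd9-1*, against 470, 0 and 1035 bp in WT, and the 180 bp of H4Ac in replicate 2 belonged to a peak centred on the neighbouring gene. Thus H4Ac was called in every WT library on WRKY18 alone of the 3.

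WRKY22 and WRKY29, which act downstream of the flagellin receptor, also differed: WRKY22 had 1201, 0 and 700 bp of H4Ac and no H2A.Z, and WRKY29 had 0, 0 and 0 bp of H2A.Z in *mbd9-1*, against 439, 0 and 0 bp in WT, and no H4Ac. The phosphate-related WRKY42, which acts with WRKY6 on PHO1, had no H2A.Z in *mbd9-1*, against 0, 0 and 428 bp in WT. WRKY2, which acts in pollen, zygote polarity and abscisic acid responses, had 858, 809 and 0 bp of H4Ac and no H2A.Z. WRKY25 and WRKY26, which with WRKY33 act in heat tolerance, were chosen after their values were seen. WRKY25 had 868, 819 and 818 bp of H4Ac and no H2A.Z. WRKY26 had no H2A.Z in *mbd9-1*, against 439, 0 and 428 bp in WT, and 17 bp of H4Ac from a peak centred on the next gene.

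No peak was called in any of the 9 libraries on WRKY8, WRKY51, WRKY75, WRKY41, WRKY55 and WRKY70 (10.9%, against 19.3% of all genes). WRKY70 and WRKY54 act together in salicylic acid signalling and leaf senescence, and WRKY54 had 495, 0 and 0 bp of H2A.Z in *mbd9-1*, against 553, 0 and 428 bp in WT. WRKY75, like WRKY45, acts in the response to phosphate starvation. Another 6 genes, WRKY36, WRKY12, WRKY28, WRKY71, WRKY17 and WRKY38, had no WT peak and were marked in *mbd9-1* only (10.9%, against 4.45% of all genes), which made 12 genes without any WT peak (21.8%, against 23.8%). WRKY12, WRKY28, WRKY71 and WRKY38 each had a peak in 1 *mbd9-1* library only. Without the narrowest peaks, WRKY36 kept 738 bp in *mbd9-1* replicate 2 and WRKY38 kept 624 bp in *mbd9-1* replicate 1. WRKY12, WRKY28, WRKY71 and WRKY17 then had no peak. WRKY43, counted with the H4Ac genes, held only 10 and 35 bp at the edge of its window from peaks centred outside it.

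The centres of H2A.Z peaks on WRKY genes lay, by their medians, further from the TSS than on genes at large. The median distance from the TSS to the peak centre on WRKY genes was 662, 724.5 and 1441.5 bp in *mbd9-1* replicates 1 to 3 and 774.5, 714.5 and 825 bp in WT, while over all genes it was 596, 570 and 683 bp in *mbd9-1* and 489, 495 and 508 bp in WT. In WT, 37.5%, 35.7% and 40.9% of H2A.Z centres on WRKY genes lay past 1000 bp, against 20.6%, 20.7% and 21.9% for all genes. In *mbd9-1* the shares past 1000 bp were 23.1%, 37.5% and 62.5% on WRKY genes, against 25.4%, 23.8% and 36.3% on all genes, so replicate 1 went the other way. H4Ac stayed nearer to the TSS, with medians of 614, 573 and 528 bp on WRKY genes, against 383, 383 and 393 bp on all genes, and its shares past 1000 bp were 5.26%, 11.8% and 15.8% on WRKY genes, against 5.99%, 6.04% and 5.89% on all genes. The WRKY median was above that of all genes in each of the 9 libraries, but these medians rest on 8 to 24 WRKY peak centres a library. Centres in the 500 bp before the TSS entered the medians as negative distances, whichever gene a peak belonged to. How far such centres bear on the difference was not tested. The median WRKY gene was 2131 bp long, close to the 2078 bp of all genes. Among genes with H2A.Z only in WT, however, the median was 2266 bp for WRKY genes, against 1882 bp for all genes. Whether gene length bears on these distances was not tested.

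**Figure D5:**
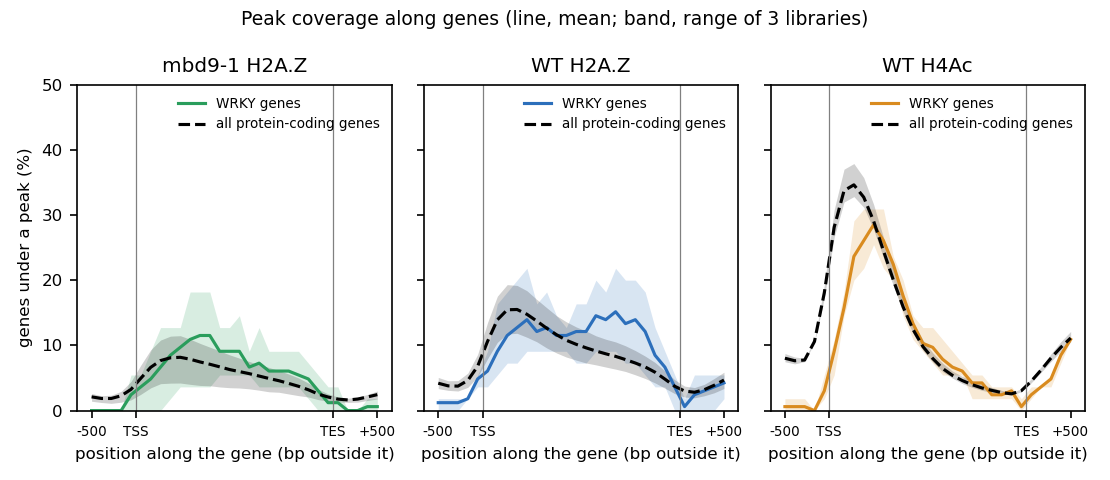
Percentage of genes under a called peak (y axis) along scaled gene bodies from the TSS to the transcript end site (TES) with 500 bp on each side (x axis), for WRKY genes (coloured lines) and all protein-coding genes (black dashed), as the mean and range of 3 libraries. The H4Ac lines are highest in the first part of the gene body, and the WT H2A.Z line of WRKY genes stays high past the middle of the gene, where that of all genes declines.

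The coverage profile over scaled gene bodies gave a like picture in WT and a mixed one in *mbd9-1*. In *mbd9-1* the mean H2A.Z coverage of WRKY genes was 11.5%, 11.5% and 2.73% over the 5′ portion of the gene body up to its midpoint and 3.82%, 8.55% and 4.36% over the 3′ portion. For all genes in *mbd9-1* it was 7.69%, 9.87% and 3.74% over the 5′ portion and 4.47%, 5.61% and 2.57% over the 3′ portion, so in replicate 1 WRKY genes were above all genes at the 5′ side and below them at the 3′ side. In WT the mean H2A.Z coverage of WRKY genes was 16.4%, 7.64% and 10% over the 5′ portion and 15.6%, 6.18% and 12.4% over the 3′ portion. For all genes it was 16.2%, 9.82% and 12.8% over the 5′ portion and 9.08%, 5.40% and 7.13% over the 3′ portion. For H4Ac, WRKY genes had 21.6%, 16.4% and 19.8% over the 5′ portion and 5.64%, 3.82% and 4.73% over the 3′ portion, against 26.3%, 23.0% and 22.9% over the 5′ portion and 4.88%, 3.99% and 4.15% over the 3′ portion for all genes.

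The marks also differed in the coding landmarks they covered. The start codon lay a median of 243 bp and the first heptapeptide codons a median of 1069 bp from the TSS. Among the WRKY genes marked in a library, the start codon was under a peak in 23.1%, 43.8% and 0% in *mbd9-1* H2A.Z replicates 1 to 3, in 50%, 41.7% and 31.6% in WT H2A.Z and in 70.0%, 61.1% and 75.0% in WT H4Ac. The lowest H4Ac share exceeded the highest H2A.Z share of either genotype. Start codons were looked up in WRKY genes only, so no share over all genes stands beside these values. Over all genes, too, H4Ac peak centres lay nearer to the TSS than WT H2A.Z centres by their medians. The heptapeptide codons were under a peak in 30.8%, 43.8% and 25.0% in *mbd9-1* H2A.Z, 40.9%, 33.3% and 31.6% in WT H2A.Z and 25.0%, 33.3% and 10% in WT H4Ac. WRKY44, WRKY46 and WRKY53 had them under H2A.Z in all 3 WT libraries, as in the printed stretches of WRKY44 and WRKY46.

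By annotation, coding exons made up 64.8% to 72.1% of the WRKY bases under H2A.Z in *mbd9-1*, 63.9% to 69.4% in WT and 49.9% to 55.3% of those under H4Ac, against 38.9% of the windows. The upstream 500 bp held 0% to 2.27% of the H2A.Z bases in *mbd9-1*, 2.55% to 6.35% in WT and 1.07% to 3.03% of the H4Ac bases, against 18.1% of the windows. Untranslated exons held 9.31% to 17.4% of the H2A.Z bases in *mbd9-1*, 9.17% to 16.7% in WT and 26.4% to 30.2% of the H4Ac bases, against 22.6% of the windows. These shares by annotation were not computed over all genes. WRKY50 was an exception for H2A.Z. It had no peak in *mbd9-1*, against 0, 579 and 555 bp in WT, and those peaks were centred at -210 and -261 bp from the TSS, upstream of it.

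Gene length and the W box were compared between the classes as features that the choice of genes had not used. The median gene length was 2266 bp for the 17 genes with H2A.Z only, 2324 bp for the 17 with H4Ac only and 1891 bp for the 19 with neither. For all genes of these classes it was 1882, 2496 and 1597 bp in that order. A W box, searched as TTGACC or TTGACT on both strands from 250 bp before to 50 bp after the TSS, was found in 21 of 55 WRKY promoters (38.2%), against 32.4% of the promoters of all protein-coding genes. It was found in 7 of the 17 genes with H2A.Z only, 5 of the 17 with H4Ac only and 9 of the 19 with neither. A match is a description of the letters and not a bound site.

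The wider pathway was followed through a list of 19 genes. All 6 genes of the MAP kinase cascades that act upstream of WRKY factors (MPK3, MPK6, MPK4, MKK4, MKK5 and MEKK1) had H4Ac in at least 2 WT libraries, as did 46.3% of all genes. None had H2A.Z in at least 2 *mbd9-1* libraries, and MKK4 alone had it in 2 WT libraries, with 44 and 143 bp. Of 4 genes for VQ proteins, which bind WRKY factors, MKS1 and IKU1 had H4Ac in all 3 libraries, and none had H2A.Z in any library. Of 9 genes that WRKY factors bind or regulate, 4 had H2A.Z in at least 2 *mbd9-1* libraries and 3 in at least 2 WT libraries, while 2 had H4Ac in at least 2 WT libraries. The shares of all genes were 16.0% for *mbd9-1* H2A.Z, 28.8% for WT H2A.Z and 46.3% for WT H4Ac, and with 9 genes or fewer these counts are descriptions.

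FRK1, the flagellin-induced receptor kinase gene, was the only one of the 19 with H2A.Z in all 6 libraries, which 3.48% of all genes had. It had 840, 1623 and 381 bp in *mbd9-1*, against 439, 461 and 856 bp in WT, and overlapped between genotypes. The 381 bp of *mbd9-1* replicate 3 and the 439 and 461 bp of WT replicates 1 and 2 equalled the narrowest widths of their lists. PAD3, which encodes the last enzyme of camalexin synthesis and is a target of WRKY33, had 907, 1546 and 0 bp in *mbd9-1*, against 0, 0 and 1461 bp in WT. Of the abscisic acid genes, ABI4 had 1026, 1102 and 0 bp in *mbd9-1*, against 1389, 1228 and 0 bp in WT, and ABI5 had 0, 601 and 0 bp in *mbd9-1*, against 794, 628 and 702 bp in WT. ABI5 was the only one of the 19 lower in every *mbd9-1* than in every WT library (exact p = 0.1, the smallest possible). Of all genes, 8.83% were lower in this way. NPR1, the salicylic acid coactivator, had no H2A.Z and 782, 569 and 798 bp of H4Ac.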

How the data were processed

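H2A.Z was immunoprecipitated from *mbd9-1* and WT seedlings and H4Ac from WT seedlings, and 9 peak lists were used. The authors mapped reads to TAIR10 with Bowtie2, filtered them with Samtools, and called regions in each library with HOMER, with input chromatin as the reference, without scaling the libraries to a common depth. The deposited lists hold chromosome, start and end of each peak, so the unit here is base positions (no count, score or signal). The lists do not give read depth, and starts were taken as 0-based.

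Genes were placed with RefSeq's TAIR10.1 gene models (nuclear chromosome lengths equal those of TAIR10). Python 3.11.15 served to measure window base pairs under peaks (NumPy 2.4.6), checked on simulated lists, and to draw them (matplotlib 3.10.9). A gene was marked at 1 bp or more. Genotypes were compared by an exact two-sided permutation test per gene, 3 libraries against 3 (20 labelled splits), Benjamini-Hochberg adjusted over all genes tested, and by complete separation, and shares were compared as means without a test. The background of a call is its share among all 27444 protein-coding genes.

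All members are counted; per-library values are given for members marked in all 3 WT and no *mbd9-1* library, in all 6 H2A.Z libraries, above WT in every *mbd9-1* library, the 5 longest by H4Ac among those with H4Ac in all 3 and no WT H2A.Z, and a set of members with known roles. Other members that are named were chosen after their values were seen. The members and lists were chosen with earlier results of these data known. The alternatives were other overlaps, windows and replicate rules, stricter and equally long lists, and leaving out each library.

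Whether replicate numbers paired *mbd9-1* with WT could not be told. Deviations of libraries with the same number correlated across genes at 0.0187, -0.174 and 0.0159. The WT H2A.Z and H4Ac libraries of a number came from the same chromatin, yet correlated at only -0.0111, 0.00865 and 0.0160. The check therefore cannot detect pairing.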

Additional observations from a re-analysis of the deposited data

How the results depend on the processing

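Replacing the gene window by 500 bp upstream to 1000 bp downstream of the TSS gave 1 WRKY gene higher in *mbd9-1*, a WRKY minus all-gene difference of 0.270 points for *mbd9-1* H2A.Z, a *mbd9-1* minus WT difference of -611 bp for WRKY35 and 0 bp for WRKY36. The count of genes higher in that window was not computed over all genes. Without the narrowest peaks, 2 WRKY genes were lower and 0 higher in every *mbd9-1* library, 0 were marked in all WT and no *mbd9-1* library, 3 were marked in at least 2 *mbd9-1* libraries, 1 had both marks in WT, and the WRKY minus all-gene difference for *mbd9-1* was -1.23 points; WRKY6, WRKY17 and WRKY36 then differed by -421, 0 and 246 bp. With equal list lengths the share difference between genotypes was 0 points, that between H2A.Z and H4Ac -13.3 points, 2 genes were lower, 0 were marked in all WT and no *mbd9-1* library, and 1 had both marks. Asking for all 3 libraries gave 4 genes in *mbd9-1*, 8 for WT H2A.Z and 1 with both marks, and asking for 1 gave 22 in *mbd9-1* and 8 with both marks.

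Leaving out 1 library at a time gave share differences of -14.8 (without WT replicate 2) to -5.76 points (without *mbd9-1* replicate 3) between genotypes. Between H2A.Z and H4Ac they were -6.97 to 2.12 points. From 4 WRKY genes without *mbd9-1* replicate 3 (7.27%, against 9.03% of all genes) to 10 without WT replicate 2 (18.2%, against 15.1%) were lower. Those higher numbered 3 without *mbd9-1* replicate 3 (5.45%, against 4.66%) and 2 without any other H2A.Z library (3.64%, against 1.18% to 1.81%). Between 2 without *mbd9-1* replicate 3 (3.64%, against 5.48%) and 5 without WT replicate 2 (9.09%, against 8.37%) were marked in all WT and no *mbd9-1* library. Counts marked in both remaining or 2 of 3 libraries were 4 to 10 for *mbd9-1* H2A.Z, 9 to 16 for WT H2A.Z and 14 to 17 for WT H4Ac, with 1 to 2 carrying both marks. Such counts over all genes were not computed for lists without an H4Ac library. With the replicate number as a block, the share differences were -9.70 points between genotypes and -3.03 points between H2A.Z and H4Ac. Then 6 WRKY genes were lower and 2 higher within every pair of libraries of the same number. That rule is looser than complete separation, and it was not computed over all genes. The difference between H2A.Z and H4Ac changed sign without WT H2A.Z replicate 2. In all, 26 recomputed values over the family moved by more than the replicate SD or the margin allowed for a count, and 124 did not. Peak lists hold no read depth, so a gene without a peak is one with no called enrichment, not one shown to lack the mark.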
